A study of Mus musculus with 4 samples.

Results

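Mature B cells were chosen by 4 genes in single-cell RNA data of mouse LSK cells, the Lin-Sca1+cKit+ bone marrow fraction that holds stem and multipotent progenitor cells. A barcode counted as a member when it held at least 1 unique molecular identifier (UMI, a tag that marks 1 captured transcript) of Ms4a1, at least 2 of Cd79a and none of Igll1 or Vpreb1. Before that choice a barcode needed at least 500 UMIs, at most 10% of them from mitochondrial genes, and no library in which the same barcode sequence held 3 or more times as many UMIs. The rule kept 14045 of 25242 deposited barcodes and found 230 members among them, 3 in control replicate 1, 3 in control replicate 2, 89 in Nup358 knockout replicate 1 and 135 in Nup358 knockout replicate 2. Because the members were selected on Ms4a1, Cd79a, Igll1 and Vpreb1, the levels of these and all other genes of the same cells against other cells are a description with no test.

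Each of the 4 libraries held LSK cells sorted from the pooled bone marrow of 3 mice aged 9 to 12 weeks, and each genotype had 2 libraries. Control mice were Nup358 fl/fl, which the labels call wild-type. Knockout mice were Nup358 fl/fl with R26-CreERT2, a tamoxifen-activated Cre that acts in all tissues. Nup358 was deleted in adult mice by tamoxifen on 3 consecutive days, and the paper's bone marrow controls were also treated. The paper's text does not give the day on which the sequenced cells were taken. The kit reads the 3′ ends of transcripts, and the deposited matrices of control replicates 1 and 2 held 60330267 and 25111828 UMIs, and those of knockout replicates 1 and 2 held 35986936 and 54850344. Ranbp2, the gene of Nup358, stood at 121 and 135 UMIs per 1000000 (CPM) in the members without progenitor RNA or plasma cell RNA (defined below) of the knockout libraries, and at 127 and 101 CPM in the other kept barcodes of the control libraries. The floxed exon 2 lies far from the 3′ end that is read, so these values check neither the deletion nor the labels.

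Mature B cells leave the bone marrow as immature cells, finish their maturation in the spleen, and partly return to the marrow through the blood. They carry the B cell receptor, whose signal passes through Cd79a and Cd79b, and they present antigen on MHC class II molecules, whose chains assemble on the invariant chain Cd74. They lack the receptor Kit and are normally removed from an LSK sort by their lineage antigens, such as B220.

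The 4 genes that mark the label were placed on GRCm38 by the GENCODE annotation of that build. Ms4a1, the gene of CD20, is at chr19:11249675-11266241, and Cd79a at chr7:24897381-24902197. Bank1, a scaffold protein of B cell receptor signalling, is at chr3:136053363-136326066, and Fcmr, the receptor for IgM, at chr1:130865669-130880791. Promoter windows of RefSeq (build GRCm38.p6), 250 bases before to 50 after a start site, were read for the 3 of these 4 genes that had an entry, since their RNA was found together in the members. Capitals mark the E-box CAGGTG or its reverse CACCTG, letters that the B lineage factor Tcf3 is known to bind. The windows are chr7:24897247-24897546 (plus strand) for Cd79a, chr3:136326017-136326316 (minus strand) for Bank1 and chr1:130865527-130865826 (plus strand) for Fcmr, each written 5′ to 3′ along the gene.
Cd79a: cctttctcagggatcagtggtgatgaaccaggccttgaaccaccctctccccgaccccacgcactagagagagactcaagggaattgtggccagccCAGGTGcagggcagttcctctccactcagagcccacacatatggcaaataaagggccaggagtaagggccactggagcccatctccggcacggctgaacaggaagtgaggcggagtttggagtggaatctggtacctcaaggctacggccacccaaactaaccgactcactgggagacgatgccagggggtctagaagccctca
Bank1: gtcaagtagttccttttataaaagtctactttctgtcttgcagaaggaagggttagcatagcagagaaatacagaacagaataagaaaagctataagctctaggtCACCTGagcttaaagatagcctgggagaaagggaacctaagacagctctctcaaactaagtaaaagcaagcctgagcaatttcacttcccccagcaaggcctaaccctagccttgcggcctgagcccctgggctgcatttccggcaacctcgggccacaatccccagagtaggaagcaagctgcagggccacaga
Fcmr: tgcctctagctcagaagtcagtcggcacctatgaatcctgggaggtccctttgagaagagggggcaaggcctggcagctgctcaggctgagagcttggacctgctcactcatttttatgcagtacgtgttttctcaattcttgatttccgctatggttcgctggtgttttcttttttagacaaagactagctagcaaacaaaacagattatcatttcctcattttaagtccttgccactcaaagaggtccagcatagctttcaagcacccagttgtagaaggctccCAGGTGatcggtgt

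Each of the 3 windows held 1 E-box, which began 154 bases before the start site of Cd79a, 145 before that of Bank1 and 36 after that of Fcmr. The E-box was in 20.2% of all 32851 promoter windows. Of 22 genes listed for mature B cell identity 16 had windows, 20 in all, of which 10 (50%) held an E-box. The octamer ATGCAAAT or its reverse ATTTGCAT was in 1.74% of all windows and in 0 of the 20. A match is a run of letters and no evidence of binding, and nothing about a factor follows from a window without one.

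Libraries shared many barcode sequences, which bears on every count of members. Of 25242 barcodes, 17622 (69.8%) had a sequence that at least 1 other library also held, from 33.9% in control replicate 1 to 97.6% in control replicate 2. Of the 230 members, 32 had a sequence that another library held, and 30 of these 32 were among the 31 members over 8000 UMIs. The filter on copied barcodes removed 1369, 5595, 3161 and 811 barcodes from the libraries in the order above, 1 of which met the gene rule. The share of members is therefore given below under both other treatments of shared sequences.

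The members made up 0.0383% of kept barcodes in control replicate 1 (exact Clopper-Pearson 95% interval 0.0079 to 0.112) and 0.250% in control replicate 2 (0.0515 to 0.728). They made up 5.60% in Nup358 knockout replicate 1 (4.52 to 6.85) and 3.94% in Nup358 knockout replicate 2 (3.32 to 4.65). Both knockout libraries lay above both control libraries, and the intervals cover counting error within a library, not the spread between libraries. The mean share was 0.144% ± 0.150 in control and 4.77% ± 1.17 in knockout libraries (SD, n = 2 each), a difference of 4.63 percentage points. An exact two-sided permutation test gave p = 0.333, the smallest value that 2 against 2 libraries allow, so that the difference cannot pass a threshold of 0.05 in this design. The difference was 2.503 points with copied barcodes kept and 16.7 points without any barcode that another library held. That last setting removed 1082 of the 1201 kept barcodes of control replicate 2 and 1232 of the 1589 of knockout replicate 1. It left 2 members in control replicate 2. The shares in that setting were 0.0495% and 1.68% in control and 20.45% and 14.6% in knockout libraries. The cells were sorted as Kit+ and lineage-negative, a gate that can itself set this share, and sort and genotype cannot be told apart here.

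**Figure D1:**
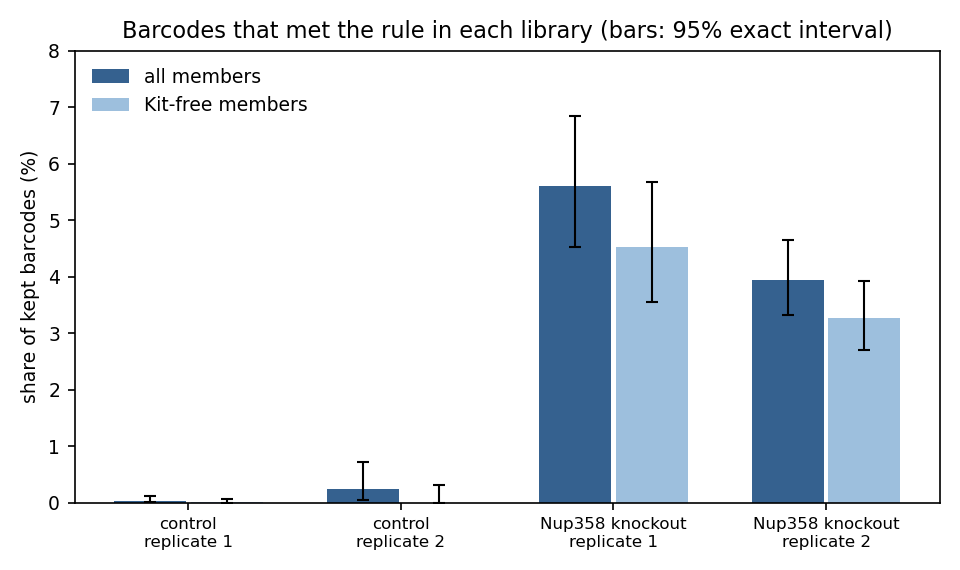
Share of kept barcodes (%, vertical axis from 0) that met the rule for mature B cells, and that were Kit-free members, in each of the 4 libraries. Bars give the share and lines its exact 95% interval, which covers counting error. All members reach 5.60% and 3.94% in the knockout libraries and stay at 0.0383% and 0.250% in the control libraries.

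The members were not 1 kind of cell, and 3 classes were set after their values were seen. A first class of 25 members held at least 20 UMIs of Jchain, the joining chain of secreted IgM and IgA, which plasma cells make. These Jchain-high members numbered 2, 3, 9 and 11 in the order of the libraries above. The lowest of them held 26 UMIs of Jchain, and the highest member below the threshold held 1. A second class of 20 members, all from knockout libraries (8 and 12), had fewer than 20 UMIs of Jchain and at least 1 UMI of the progenitor genes Kit, Cd34 or Mpo, and is called members with progenitor RNA. The remaining 185 members had no UMI of Kit, Cd34 or Mpo and are called Kit-free members. They numbered 1, 0, 72 and 112.

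Kit, which encodes the stem cell factor receptor that the sort required, was not absent from all members. A UMI of Kit was found in 9 of 89 members (10.1%) of knockout replicate 1 and in 14 of 135 (10.4%) of knockout replicate 2, against 68.98% and 59.98% of the other kept barcodes of the same libraries. The 23 members with Kit had a median of 19783 UMIs, and those of the knockout libraries up to 8000 UMIs held Kit in 1 of 74 and 2 of 120. After each cell was thinned to 1000 UMIs, with shallower cells left out, Kit was found in 0 of 87 and 4 of 96 members (4.17%, interval 1.15 to 10.3) and in 8.47% and 7.62% of the other kept barcodes. A share of 0 in 87 cells still allows up to 4.15% by its exact interval. The interval of knockout replicate 2 covers the share in the other kept barcodes. The label of cells without Kit thus had exceptions, most of them among the deep members, and at this depth a member without a UMI of Kit cannot be called negative.

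The classes differed in depth, which their definition favours, since a deeper barcode more easily holds a UMI of a progenitor gene or 20 of Jchain. Kit-free members of the knockout libraries had medians of 2006 and 1135 UMIs, members with progenitor RNA 27230 and 13968, and Jchain-high members 13791 and 7118. The other kept barcodes of these libraries had medians of 18466 and 14812. Of the 184 Kit-free members in the knockout libraries, 2 exceeded 8000 UMIs, both in replicate 1. The mitochondrial share of UMIs had medians of 5.29% and 4.29% in Kit-free members and 3.44% and 2.83% in the other kept barcodes.

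**Figure D2:**
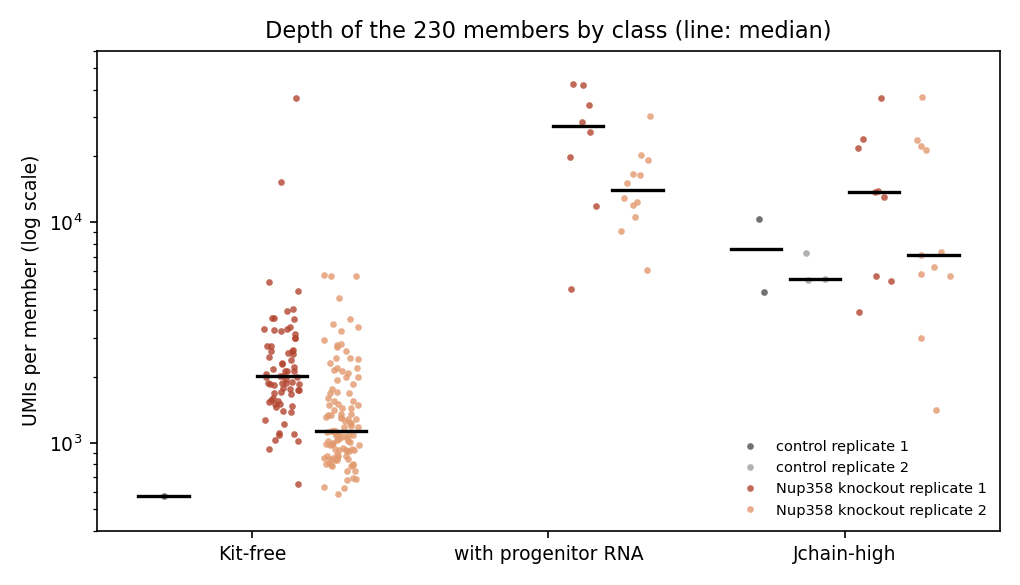
UMIs of each of the 230 members (vertical axis, log scale) by class, with 1 point per member coloured by library and a line at the median of each library. Kit-free members lie mostly below 8000 UMIs, with medians of 2006 and 1135 in the knockout libraries, and the other classes lie higher.

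The 6 control members were few and mostly of another kind. A total of 5 were Jchain-high, with 26 to 637 UMIs of Jchain, and 4 of these 5 held no UMI of Bank1 and 4 none of Fcmr. The remaining control member, from replicate 1, had 576 UMIs, with 1 of Ms4a1, 9 of Cd79a and 17 of Cd74. Kit-free members made up 0.0128% and 0% of kept barcodes in control replicates 1 and 2, the latter with an upper limit of 0.307%, and 4.53% and 3.27% in knockout replicates 1 and 2. Levels are therefore given for the 184 Kit-free members of the knockout libraries, which held 206772 and 169801 UMIs in all. Over all members of these libraries, in which the deeper classes hold most UMIs, levels differed: Cd74 was at 5743 and 6769 CPM, Fcer2a at 66.8 and 53.0 CPM, Ly6a at 1458 and 1491 CPM and Jchain at 8140 and 4907 CPM. No control library held 10 members, the minimum set for a test of genes between genotypes, and none was made.

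The B cell antigen receptor and coreceptor genes were present in nearly all Kit-free members. Cd79b, the partner of Cd79a that the rule did not use, had a UMI in 70 of 72 and 106 of 112 cells, at 1630 and 2362 CPM against 31.1 and 32.5 CPM in the other kept barcodes. Its mean was 1996 ± 517 CPM (SD, n = 2 libraries). Cd22, an inhibitory coreceptor, was found in 32 and 39 cells at 227 and 342 CPM. The other kept barcodes held less than 1 CPM of it in both libraries. Bank1 had a UMI in 54 of 72 (75%, interval 63.4 to 84.5) and 63 of 112 cells (56.2%, 46.6 to 65.6), and Fcmr in 45 (62.5%) and 77 (68.8%). Bank1 and Fcmr were found together in 33 and 46 cells, and 6 and 18 cells held neither. At 1000 UMIs per cell the shares were 58.6% and 43.8% for Bank1 and 38.6% and 54.8% for Fcmr, against at most 0.625% in the other kept barcodes. Both genes were thus found in both libraries, well above the share in cells that should lack them.

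The list of mature B cell identity had 22 genes, all measured, of which Ms4a1 and Cd79a had chosen the members. The other 20 were all higher in Kit-free members than in other kept barcodes of both knockout libraries. Their median difference was 5.15 and 5.20 on the log2 scale of CPM plus 5, beside -0.18 and -0.17 over all 14502 genes with at least 10 UMIs. Of those 14502 genes, 2947 were higher and 8400 lower in both libraries, and 4471 had no UMI in the Kit-free members. The summed level of these 20 genes was 11020 and 13670 CPM in Kit-free members and 367 and 347.5 CPM in the other kept barcodes. Thinned to 1000 UMIs, a Kit-free member held a median of 8 of the 20 genes in either library, with a range of 4 to 13 and 4 to 11. The medians were 2 and 2 in pro-B and pre-B like cells, 1 and 1 in plasmacytoid dendritic-like cells and 0 and 0 in the other kept barcodes. Pro-B and pre-B like cells (10 and 133) were barcodes with at least 1 UMI of Cd79a and 2 of Igll1 plus Vpreb1, and plasmacytoid dendritic-like cells (36 and 59) had at least 2 UMIs of Siglech.

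**Figure D3:**
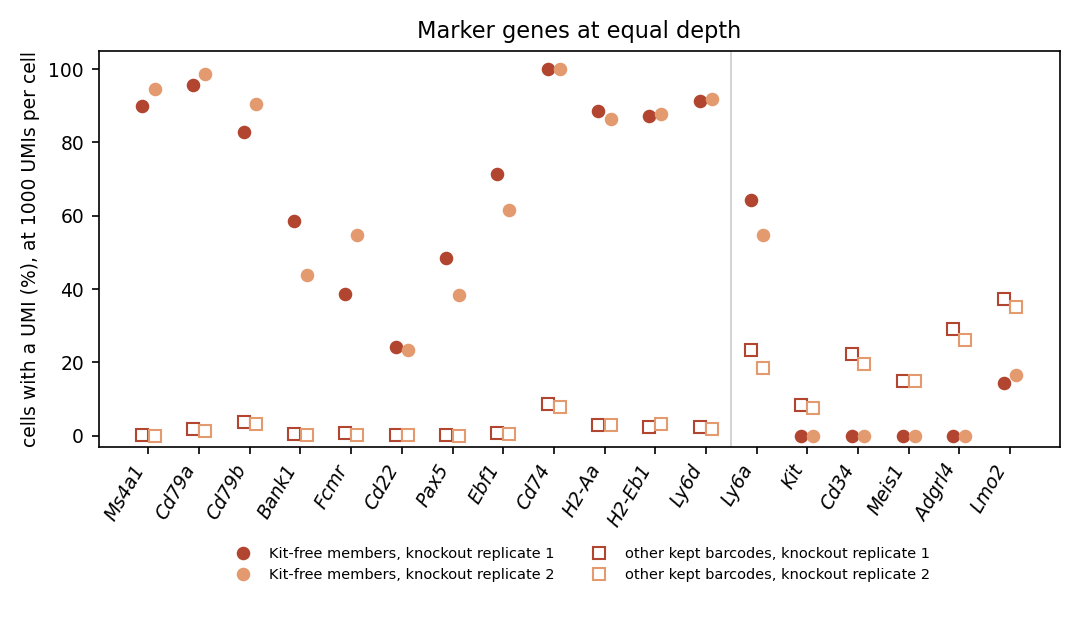
Percent of cells with a UMI of each gene (vertical axis) after every cell was thinned to 1000 UMIs, in Kit-free members (filled circles) and other kept barcodes (open squares) of the 2 knockout libraries. B cell and MHC class II genes left of the grey line are found in 23.3% to 100% of Kit-free members and under 10% of other barcodes. Among them, Ms4a1 and Cd79a were required by the rule. Kit, Cd34, Meis1 and Adgrl4 are at 0 in Kit-free members, Kit and Cd34 by the choice of that class.

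MHC class II genes formed the most abundant of these programmes. All 13 listed genes were higher in Kit-free members than in the other kept barcodes of both libraries, with median differences of 4.37 and 4.77 on the same log2 scale. Cd74, the invariant chain, stood at 11960 and 14700 CPM in Kit-free members, and every one of them held it. The other kept barcodes stood at 150 and 143 CPM. The chains H2-Aa and H2-Eb1 were at 2728 and 3115 CPM and at 2341 and 2874 CPM in Kit-free members, against under 50 CPM in the other barcodes. H2-DMb2, part of the peptide exchanger H2-DM, had 450 and 395 CPM, and H2-Oa and H2-Ob, whose product restrains H2-DM in B cells, had 232 and 348 CPM and 242 and 336 CPM. Ciita, the master activator of these genes, was found in 14 and 24 cells. Plasmacytoid dendritic-like cells also carried the list, at a summed level of 3235 and 3608 CPM, beside 22140 and 27060 CPM in Kit-free members and 446 and 482 CPM in pro-B and pre-B like cells.

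Of 25 genes of B cell receptor signalling other than Cd79a, 23 were higher and 1 lower in both libraries. The kinases Blk, Syk and Lyn stood at 222 and 159, 368 and 524, and 242 and 165 CPM in Kit-free members, and the adaptor Blnk at 193 and 200 CPM. Btk differed less, with 135 and 141 CPM against 67.7 CPM in the other kept barcodes of either library. Dapp1, an adaptor that binds phosphoinositides, was the gene that was lower, with 87.1 and 58.9 CPM against 217 and 194 CPM. Both libraries gave the same direction for each gene named so far in this paragraph, with n = 2 and no test. The direction differed for Cd81, at 271 against 180 CPM in replicate 1 and 124 against 206 CPM in replicate 2.

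Transcription factors of the B lineage were higher for 26 of 28 genes. Pax5, which commits and holds cells to the B lineage, had 406 and 565 CPM and was found in 50 and 56 Kit-free members, beside under 1 CPM in the other kept barcodes. Ebf1, which acts with Pax5, had 914 and 1072 CPM, a level that pro-B and pre-B like cells of replicate 2 also had (940 CPM). Pou2af1, the octamer coactivator, had 353 and 236 CPM, and Spib, an Ets factor of B cells and plasmacytoid dendritic cells, 208 and 377 CPM. Klf2, a factor of quiescence and homing, had 1117 and 1708 CPM against 36.8 and 57.3 CPM in other barcodes and 83.1 CPM in pro-B and pre-B like cells of replicate 2. The 2 genes outside this pattern were Spi1, at 121 and 112 CPM against 135 and 138 CPM, and Mef2b, with no UMI in Kit-free members.

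**Figure D4:**
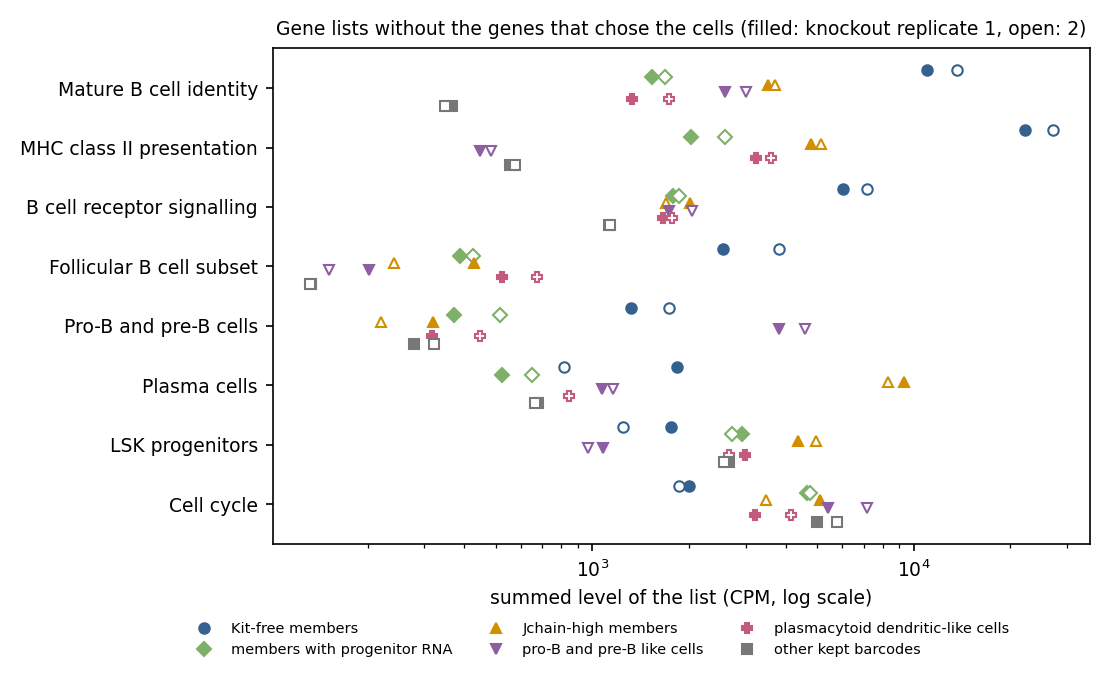
Summed level of 8 gene lists without the genes that chose members, classes or comparison sets (horizontal axis, CPM on a log scale) in 3 classes of members and 3 sets of other barcodes, with filled symbols for knockout replicate 1 and open symbols for replicate 2. Kit-free members lead the identity and MHC class II lists, at 11020 and 13670 CPM and at 22140 and 27060 CPM, and Jchain-high members lead the plasma cell list without Jchain at 9343 and 8341 CPM.

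Survival receptors were split. Tnfrsf13c, the BAFF receptor that keeps mature B cells alive, was found in 23 and 31 Kit-free members at 222 and 259 CPM against 6.65 and 7.10 CPM, and its relative Tnfrsf13b (TACI) stood at 189 and 124 CPM against 36.7 and 35.8 CPM. Tnfrsf17 (BCMA), the receptor of plasma cells, had no UMI in Kit-free members and 131 and 142 CPM in Jchain-high members. The antiapoptotic Bcl2 had 169 and 259 CPM against 74.2 and 75.4 CPM, whereas Bcl2l1 was at 4.84 and 5.89 CPM, which is 1 UMI in each library. Cd27, a receptor of memory B cells and of progenitors, had 9.67 and 5.89 CPM against 94.1 and 94.6 CPM. Of the 14 genes listed, 10 were higher, 3 lower and 1 in neither group.

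Genes of homing and lymphotoxin were higher for 14 of 18. Ltb, a lymphotoxin subunit through which B cells shape follicles, was found in 57 and 85 Kit-free members at 759 and 1396 CPM, against 21.8 and 30.8 CPM in the other kept barcodes. The chemokine receptors Cxcr5 and Ccr7, which guide B cells to follicles and to the T cell border, were found in 15 and 18 and in 24 and 20 cells, beside under 1 CPM in other barcodes. S1pr1, the receptor for egress into blood, had 126 and 200 CPM against 8.30 and 7.78 CPM. Among 9 Toll-like receptor genes 6 were higher, among them Cd180 and its partner Ly86, at 193 and 242 CPM and at 116 and 171 CPM.

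Subset genes of follicular B cells were higher for 8 of 8 listed genes, with a summed level of 2549 and 3816 CPM against 133 and 132 CPM. Most of that sum was Klf2, at 1117 and 1708 CPM, and Fcmr, a marker of the label, at 416 and 936 CPM. Plasmacytoid dendritic-like cells reached a sum of 524 and 675 CPM. No set of other mature B cells was compared, so the list cannot tell follicular cells from them. Fcer2a (CD23), which follicular B cells carry and marginal zone cells carry little of, was found in 21 of 72 Kit-free members (29.2%, interval 19.1 to 41.1) and 19 of 112 (17.0%, 10.5 to 25.2), at 174 and 141 CPM. The other kept barcodes, which are deeper, held Fcer2a in 0.206% and 0.452% of cells. At 1000 UMIs the share was 18.6% and 9.59% in Kit-free members and 0% and 0.0985% in the others. With medians of 2006 and 1135 UMIs a cell without a UMI of Fcer2a cannot be called negative.

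Marginal zone genes had no common direction, with 4 of 11 higher and 4 lower. Cr2 (CD21), which follicular cells carry and marginal zone cells carry at higher levels, was found in 14 (19.4%) and 17 (15.2%) Kit-free members, 7 and 4 of which also held Fcer2a, and in 0.688% and 0.517% of the other kept barcodes. Cd1d1, which is high in marginal zone cells, was found in 2 and 4 Kit-free members and in no cell with Cr2. These cells are too few to tell whether Cd1d1 and Cr2 stand apart. Dtx1, a Notch target, was found in 9 and 8 cells. Mzb1 had 1064 and 542 CPM, but in replicate 1 a single cell of 36621 UMIs held 56.4% of its UMIs and 80% of those of Xbp1, a factor of secretory cells. That cell had 124 UMIs of Mzb1, 28 of Xbp1, 19 of Mki67 and none of Jchain.

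Genes of immature and transitional cells were also mixed. Vpreb3, which is expressed from pre-B to transitional cells, was found in 23 (31.9%, interval 21.4 to 44.0) and 29 (25.9%, 18.1 to 35.0) Kit-free members, at 169 and 383 CPM, beside 1469 CPM in pro-B and pre-B like cells of replicate 2. The other kept barcodes held it in 0.825% and 0.872% of cells. In 10 and 4 cells it stood with Fcer2a. Cd93 (AA4.1), which marks transitional cells and progenitors, was found in 0 and 1 Kit-free members, against 62.0% and 55.1% of the other, deeper barcodes and 6.04% and 6.54% of them at 1000 UMIs. Rag1, Rag2, Igll1, Vpreb1, Dntt and Erg had no UMI in Kit-free members, Igll1 and Vpreb1 by the rule. No UMI over all 184 Kit-free members allows up to 1.63% of cells with a UMI and up to 7.97 CPM.

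**Figure D5:**
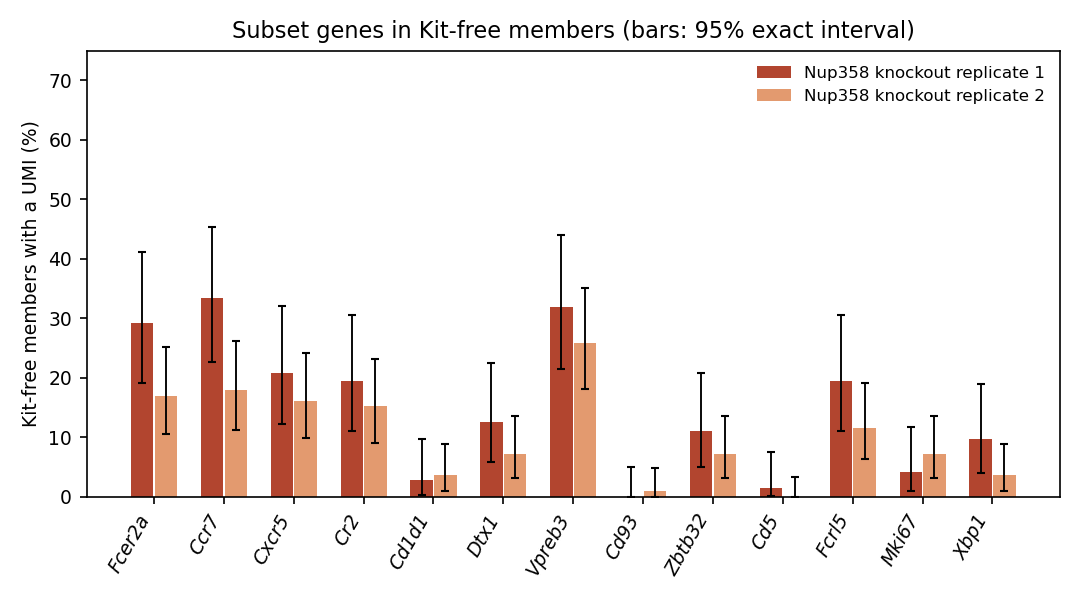
Percent of Kit-free members with a UMI of 13 subset genes (vertical axis from 0), as bars for the 2 knockout libraries with exact 95% intervals for counting error, without thinning. Fcer2a, Ccr7, Cxcr5, Cr2 and Vpreb3 are found in 15.2% to 33.3% of cells, whereas Cd1d1, Cd93 and Cd5 stay below 5%.

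Genes of other B cell states varied. Of 12 genes listed for B-1 cells 7 were higher and 4 lower than in the other kept barcodes of both libraries, and of 8 for memory and atypical B cells 4 were higher and 2 lower. Cd5, a marker of B-1a cells, was found in 1 and 0 Kit-free members, while Zbtb32 and Bhlhe41, which B-1 and memory cells carry, were found in 8 and 8 and in 13 and 12 cells, beside under 1 CPM of either in other barcodes. Bcl6, a factor of germinal centre cells, was found in 1 and 2 cells, and Fcrl5, an Fc receptor-like gene of marginal zone and atypical B cells, in 14 (19.4%) and 13 (11.6%), which is close to the shares with Cr2. Mki67, a gene of cycling cells, was found in 3 of 72 (4.17%, interval 0.868 to 11.7) and 8 of 112 (7.14%, 3.13 to 13.6), all of which also held Top2a and none of which held Fcer2a. The cells with Mki67 are too few to tell whether it and Fcer2a stand apart. The median Kit-free member had 0% of its UMIs in the 17 cell cycle genes, and each of these 17 was lower than in the other kept barcodes of both libraries. At 1000 UMIs a Kit-free member held a median of 0 of the 17 and another kept barcode a median of 3.

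Most progenitor genes were at or near 0, and Ly6a, the gene of the sorted antigen Sca1, was not. Of 20 genes listed for LSK cells 17 were lower than in the other kept barcodes and 12 had no UMI. Kit and Cd34 were at 0 by the choice of the class, which also took out barcodes that held other progenitor genes with them. Meis1, Hlf, Mecom, Adgrg1 and Procr, which mark stem cells and multipotent progenitors, were at 0 in the class. Over all members of the knockout libraries Meis1 stood at 86.6 and 108 CPM and Adgrg1 at 204 and 206 CPM, against 154 and 152 CPM and 340 and 428 CPM in the other kept barcodes. Ly6a was found in 60 of 72 (83.3%, interval 72.7 to 91.1) and 65 of 112 (58.0%, 48.3 to 67.3) Kit-free members, at 1432 and 872 CPM, against 290 and 206 CPM in the other kept barcodes. Without thinning the other, deeper barcodes held it in 86.5% and 76.7% of cells, and at 1000 UMIs the shares were 64.3% and 54.8% in Kit-free members and 23.5% and 18.4% in the others. Lmo2, which B cells and progenitors share, remained at 102 and 153 CPM against 493 and 466 CPM.

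Most markers that define other blood cells had no UMI in Kit-free members. Of 9 T cell genes 8 had no UMI, among them Cd3e, Cd3d and Cd3g, and the 9 genes of NK cells and the 7 of megakaryocytes had none. Of 11 neutrophil genes other than Mpo, which is at 0 by the choice of the class, 10 had none, with Elane and S100a8 at 0 and 1 UMI of Prtn3. That choice also took out members that held RNA of other lineages. In members with progenitor RNA the NK genes summed to 143 and 271 CPM, against 223 and 257.5 CPM in other kept barcodes. The megakaryocyte genes summed to 90.7 and 116 against 71.1 and 114 CPM, and the 11 neutrophil genes to 1145 and 271 against 1247 and 883 CPM. Of 11 erythroid genes 9 had none, and Hbb-bt, a globin, was found in 0 and 4 cells at 0 and 159 CPM, against 167 and 229 CPM in the other kept barcodes. The monocyte list was led by Cst3, at 193 and 230 CPM against 480 and 510 CPM, while Csf1r, C1qa and Adgre1 were at 0. Of 11 genes of plasmacytoid dendritic cells 5 were higher and 6 lower than in the other kept barcodes. Siglech, Ccr9 and Klk1 were at 0, while Ly6d, Irf8 and Tcf4, which B cells also express, stood at 2926 and 3369, 271 and 330, and 252 and 224 CPM.

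Members with progenitor RNA carried both sets of genes. The 20 identity genes that the rule had not used summed to 1532 and 1678 CPM, below Kit-free members and above the other kept barcodes. The 18 LSK genes other than Kit and Cd34 summed to 2925 and 2724 CPM, beside 2660 and 2567 CPM in the other kept barcodes. Ms4a1 stood at 167 and 304 CPM and Cd74 at 974 and 1368 CPM. Single cells carried much of Ms4a1: 1 cell of 4998 UMIs held 12 of its 35 UMIs in replicate 1. In replicate 2, 1 cell of 16335 UMIs held 27 of 55. Thinned to 1000 UMIs, members with progenitor RNA held medians of 1.5 and 1 of the 20 identity genes. They held 2.5 and 2 of 18 LSK genes, against 1 and 1 in Kit-free members. Of the 23 members with Kit, 16 were in this class and 7 were Jchain-high. Whether such a barcode held 1 cell or several was not tested.

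Jchain-high members carried plasma cell genes and a part of the mature B cell genes. Jchain, which chose them, stood at 32730 and 17140 CPM. The 9 other plasma cell genes summed to 9343 and 8341 CPM, against 1838 and 819 CPM in Kit-free members. Xbp1 stood at 1779 and 1537 CPM, Mzb1 at 3775 and 2911 CPM and Sdc1 (CD138), a plasma cell surface marker, at 276 and 242 CPM. The same 3 genes were at 169 and 23.6, 1064 and 542, and 9.67 and 11.8 CPM in Kit-free members. Pax5, Cd22 and Spib had no UMI in the Jchain-high members of the knockout libraries, whereas Cd79b was found in 9 of 9 and 10 of 11 cells, Ly6d stood at 1873 and 2398 CPM and Pou2af1 at 392 and 327 CPM. The 20 identity genes summed to 3521 and 3715 CPM, between Kit-free members and the other kept barcodes. Ly6a was at 3376 and 3829 CPM. Immunoglobulin constant genes were not analysed here.

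The genes that led Kit-free members over the kept barcodes that were no members, by the lower fold of the 2 libraries, were Ms4a1, Bank1, Cd74, Fcmr, H2-Eb1, Ly6d, Cd79a, H2-DMb2, H2-Aa and Scd1. They included all 4 markers of the label, 2 of which the rule had used. Scd1, a fatty acid desaturase that no list held, was found in 42 and 52 cells at 343 and 454 CPM, beside 1.34 and 3.86 CPM in the barcodes that were no members. Cd2, an adhesion receptor, was found in 39 and 35 cells, and March1, a ubiquitin ligase that controls MHC class II turnover, in 35 and 29. The most abundant transcript apart from mitochondrial and ribosomal protein genes was the nuclear RNA Malat1. Malat1 stood at 19750 and 17530 CPM against 3333 and 2898 CPM in the other kept barcodes. The interferon-inducible Ifi27l2a stood at 1146 and 789 CPM against 139 and 38.3 CPM, but its list had no common direction. Of 19 interferon-stimulated genes, 8 were higher and 9 lower in both libraries. Their median differences were -0.28 and -0.07 on the log2 scale used above. Jund, an AP-1 subunit, had 1736 and 2615 CPM against 278 and 317 CPM, and 13 of 20 immediate early and stress genes were higher in both libraries. Malat1, the mitochondrial share and the lower depth moved together with these levels, and their part in them was not tested.

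At the edge of the rule, 75 members held exactly 1 UMI of Ms4a1, and 16 held exactly 2 of Cd79a. Just outside it, 139 kept barcodes had at least 2 UMIs of Cd79a and no Ms4a1, of which 14, 5, 36 and 84 came from the libraries in the order above, and 6 barcodes had Ms4a1 and 1 UMI of Cd79a. A further 3 barcodes met the rule but for 1 UMI of Igll1 plus Vpreb1, and 15 held 2 or more of those UMIs, with a median of 19853 UMIs.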

How the data were processed

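The authors sorted LSK cells from 4 pools of 3 mice, barcoded them with the Chromium 3′ v3.1 kit and made the matrices with Cell Ranger 3.1 (from the submitters' processing notes) on GRCm38. The deposited values are UMI counts of 27998 genes per barcode, not normalized, and the counts of the 4 libraries were read as they stood. Python 3.11.15 with numpy 2.4.6, scipy 1.17.1, pandas 2.3.3 and matplotlib 3.10.9 was used.

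The members, the gene lists and the comparisons were chosen with earlier results of these data known. Levels are UMIs summed over the cells of a library and scaled to 1000000 (CPM), and folds used CPM plus 5. Shares of cells have exact 95% intervals, and a count of 0 allows 3 counts. Both cover counting error only. Shares were also computed after thinning each cell to 1000 UMIs, which left out 2 and 39 Kit-free members of the knockout libraries. Named genes were those of the lists, the 20 with the largest fold among genes with at least 10 UMIs in the members, and the 10 with the most CPM. The fold ranking was tested on simulated Poisson counts at the summed depth of all knockout members. There 100% of genes changed 4-fold and 16-fold were recovered among 27998 genes. The changed genes were drawn only from those with at least 20 CPM in barcodes that were no members. Ms4a1, Bank1, Fcmr and Scd1 did not reach that level, so the simulation does not cover them. It also held no variation between cells and was not made at the depth of Kit-free members. No doublet caller was run. The labels name replicates but do not say what else separated the pools. No gene test between genotypes was made, since that needed a library with at least 10 members in each genotype. A few genes of the lists are not reported here.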

Additional observations from a re-analysis of the deposited data

How the results depend on the processing

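The share here is of barcodes that met the rule, with Jchain-high members and members with progenitor RNA included where not said otherwise. It was higher in knockout than in control libraries under all 14 alternatives, by 2.503 to 16.7 percentage points. Each tested one gave the smallest p the design allows. The replicate block and the settings that left out 1 library reused the shares of the main setting. Their direction was fixed by those shares and adds no support. The upper end, 16.7 points, came from the setting without shared barcodes, which left 2 members in control replicate 2. The difference was 3.37 points with at least 2 UMIs of Ms4a1, 3.02 with at most 5% mitochondrial UMIs, 2.85 after thinning to 1000 UMIs and 3.895 with Kit-free members alone, an alternative added after the data were seen. Leaving out 1 library at a time gave 3.8 to 5.46 points, as values with no test. With the replicate block, pairing libraries by number, the difference was 4.63 points (exact permutation p = 0.5, the smallest possible with 2 pairs). No source says that the numbers pair the samples, and no check of pairing was made over 2 pairs. The share of members with Kit fell from 10.2% to 2.08% on thinning. Of 50 alternative levels of 10 genes, 37 moved by more than the SD between the 2 libraries, and the cause was not tested. With single cells averaged in place of summed UMIs, Fcer2a over all knockout members moved from 59.9 to 194 CPM. Cd74 moved from 6256 to 13630 CPM, whereas Jchain, Mki67 and Ly6a fell. In Kit-free members the averaged level of Fcer2a was 264 and 209 CPM, against 174 and 141 CPM from summed UMIs. That of Cr2 was 154 and 173.5 CPM, against 91.9 and 130 CPM. The other settings of the gene test (another tool, filter, scaling, block and rule) were not run, since that test could not be made with 3 members in each control library. Depth limits what the absence of a UMI shows in cells with medians of 2006 and 1135 UMIs.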

Other observations

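Barcodes with at least 20 UMIs of Jchain also lay outside the rule. That threshold was met by 16 (0.204%) and 6 (0.4996%) kept barcodes of control replicates 1 and 2, and by 46 (2.895%) and 56 (1.64%) of knockout replicates 1 and 2. Of these, 14, 3, 37 and 45 were not members. The mean share was 0.352% ± 0.209 in control and 2.27% ± 0.890 in knockout libraries (SD, n = 2 each), and an exact two-sided permutation test gave p = 0.333, the smallest value possible.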
